A study of Homo sapiens with 30 samples.

Results

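The BCL2 family apoptosis regulators described here were the 10 genes BCL2, BCL2L1, MCL1, BAX, BAK1, BCL2L11, BBC3, PMAIP1, BID and BAD. They were taken from a table of 61597 gene rows by matching the Ensembl identifier of each row to the gene symbol. All 10 were found, and all 10 passed the minimum level for testing, which was 1 CPM (counts per 1000000 counted reads) or more in at least 5 libraries and left 15137 genes.

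The RNA came from 30 samples of LX2, a single established line of human hepatic stellate cells of the activated kind, which are the collagen-producing cells of the injured liver. It was sequenced as 3′ tags with a QuantSeq kit, so that a level counts transcripts and does not depend on their length. Cells received docosahexaenoic acid (DHA, an omega-3 fatty acid), oleic acid (OLA, a monounsaturated fatty acid) or neither, and then betacellulin (BTC, a ligand of the epidermal growth factor receptor family) or no BTC. The 6 groups were DHA+BTC, DHA+Veh, OLA+BTC, OLA+Veh, Veh+BTC and Veh+Veh, where Veh is vehicle and the name after the plus sign is the second treatment. Each group held 5 libraries, 1 from each of 5 numbered experiments. Per the labels' protocols, the fatty acids were given at 50 µM on 20 µM albumin during growth, in 2 cycles of 48 h. The vehicle groups received 20 µM albumin without fatty acid over the same cycles. BTC was given at 20 ng/ml for 72 h, and the medium of every group contained 1% serum. The labels differ on the later fatty acid exposure, which is 96 h before BTC in the protocol and 72 h in the sample characteristics. They do not say whether the 5 experiments were separate passages, and a p-value here reflects only how far these libraries spread, which may be technical.

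Proteins of the BCL2 family decide whether the outer membrane of the mitochondrion is opened, the step that releases cytochrome c and starts the caspase cascade. BCL2, BCL-XL (the main product of BCL2L1) and MCL1 hold the membrane closed, BAX and BAK1 form the pores, and the BH3-only proteins BIM (BCL2L11), PUMA (BBC3), NOXA (PMAIP1), BID and BAD bind the guardians or the pore formers and favour opening. In stellate cells the balance is known for its part in the clearance of activated cells when liver fibrosis resolves. Much of the control of these proteins lies after transcription, such as the rapid turnover of MCL1, the phosphorylation of BAD and BIM and the cleavage of BID, none of which RNA levels show.

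Depth lay between 1245182 and 9490142 reads a library (median 3683035). A gene with no read could therefore be at up to 2.41 CPM at the lowest depth and 0.316 CPM at the highest (3 reads each, counting error only). DHA+BTC 5, DHA+Veh 5 and DHA+BTC 4 were the 3 shallowest libraries, where the number is the experiment. The 4 libraries whose genes lay farthest from the mean of their experiment were DHA+BTC 5, Veh+BTC 1, DHA+Veh 5 and Veh+BTC 5, with standard deviations over the compared genes of 0.62 to 0.81 against a median of 0.46 on the log2(CPM + 1) scale. Of 12 stellate cell markers, 9 averaged at least 1 CPM, including COL1A1 at 925 CPM and ACTA2 at 59.7 CPM, while DES, LRAT and RGS5 averaged under 1 CPM. All 8 hepatocyte markers averaged under 1 CPM, and their summed level was 0 to 4.37 CPM in DHA, 0 to 5.25 CPM in OLA and 0 to 1.56 CPM in vehicle libraries.

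RefSeq promoter windows of build GRCh38.p14 were held for 9 of the 10 genes, and stretches from 3 of them are shown for the genes whose levels moved most closely with another member, BAD with BAK1 and BCL2L1 against MCL1. Each is the longest run without an annotated exon among the 250 bases upstream of the start. All 3 genes lie on the minus strand, and the stretches are chr11:64284764-64284810 for BAD, chr6:33580294-33580526 for BAK1 and chr20:31723990-31724213 for BCL2L1. Capitals mark every match, on either strand, to the GC box GGGCGG, the CCAAT box CCAAT or the cyclic AMP response element half-site TGACG.
BAD: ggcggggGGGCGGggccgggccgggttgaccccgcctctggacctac
BAK1: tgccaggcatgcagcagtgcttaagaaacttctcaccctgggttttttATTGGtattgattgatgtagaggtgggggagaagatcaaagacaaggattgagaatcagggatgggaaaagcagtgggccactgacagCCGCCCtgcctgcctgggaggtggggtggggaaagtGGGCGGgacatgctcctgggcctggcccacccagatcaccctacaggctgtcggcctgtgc
BCL2L1: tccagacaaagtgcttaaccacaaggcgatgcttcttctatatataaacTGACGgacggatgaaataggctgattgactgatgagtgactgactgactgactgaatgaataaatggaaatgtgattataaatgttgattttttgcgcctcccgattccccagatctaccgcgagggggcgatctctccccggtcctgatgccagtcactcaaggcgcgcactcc

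The BAD stretch held 1 GC box, the BAK1 stretch held 2 with 1 CCAAT box, and the BCL2L1 stretch held 1 TGACG and neither of the others. Over the full 250 bases, 6 of the 9 genes held a GC box in at least 1 of their windows, as did 42.6% of 35116 single windows in the table. These counts of genes and shares of windows differ in unit. A gene with several windows, such as BID, had more chances to hold a motif than a single window. A CCAAT box stood in 5 of the 9 and in 11240 of all 35116 windows, and TGACG in 5 of the 9 and in 21.2% of all windows. The E-box CACGTG stood in BAX, BBC3 and BID and in 6.34% of all windows, and overlapped a TGACG in BAX. The forkhead site GTAAACA stood in BCL2L11 alone of the 9 and in 2.98% of all windows.

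Transcript levels of the 10 genes spanned a wide range, with guardians and BH3-only genes at both ends. The order of the means over 30 libraries (± SD) was MCL1 at 377 ± 234 CPM, BBC3 at 147 ± 49.1 CPM, BCL2L1 at 109 ± 63.8 CPM, BAD at 91.9 ± 58.2 CPM, BID at 56.1 ± 10.5 CPM, PMAIP1 at 48.3 ± 31.2 CPM, BAK1 at 47.3 ± 21.7 CPM, BAX at 17.1 ± 5.89 CPM, BCL2L11 at 12.1 ± 8.08 CPM and BCL2 at 6.19 ± 3.28 CPM. MCL1 stood at rank 448 and BCL2 at rank 9561 of the 15137 tested genes, whose median was 12.8 CPM. Each neighbouring pair in that order differed by less than the SD of its higher gene, except BAK1 and BAX. The guardian transcript of highest level was therefore that of MCL1, and that of BCL2 rested on 4 to 80 reads a library.

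**Figure D1:**
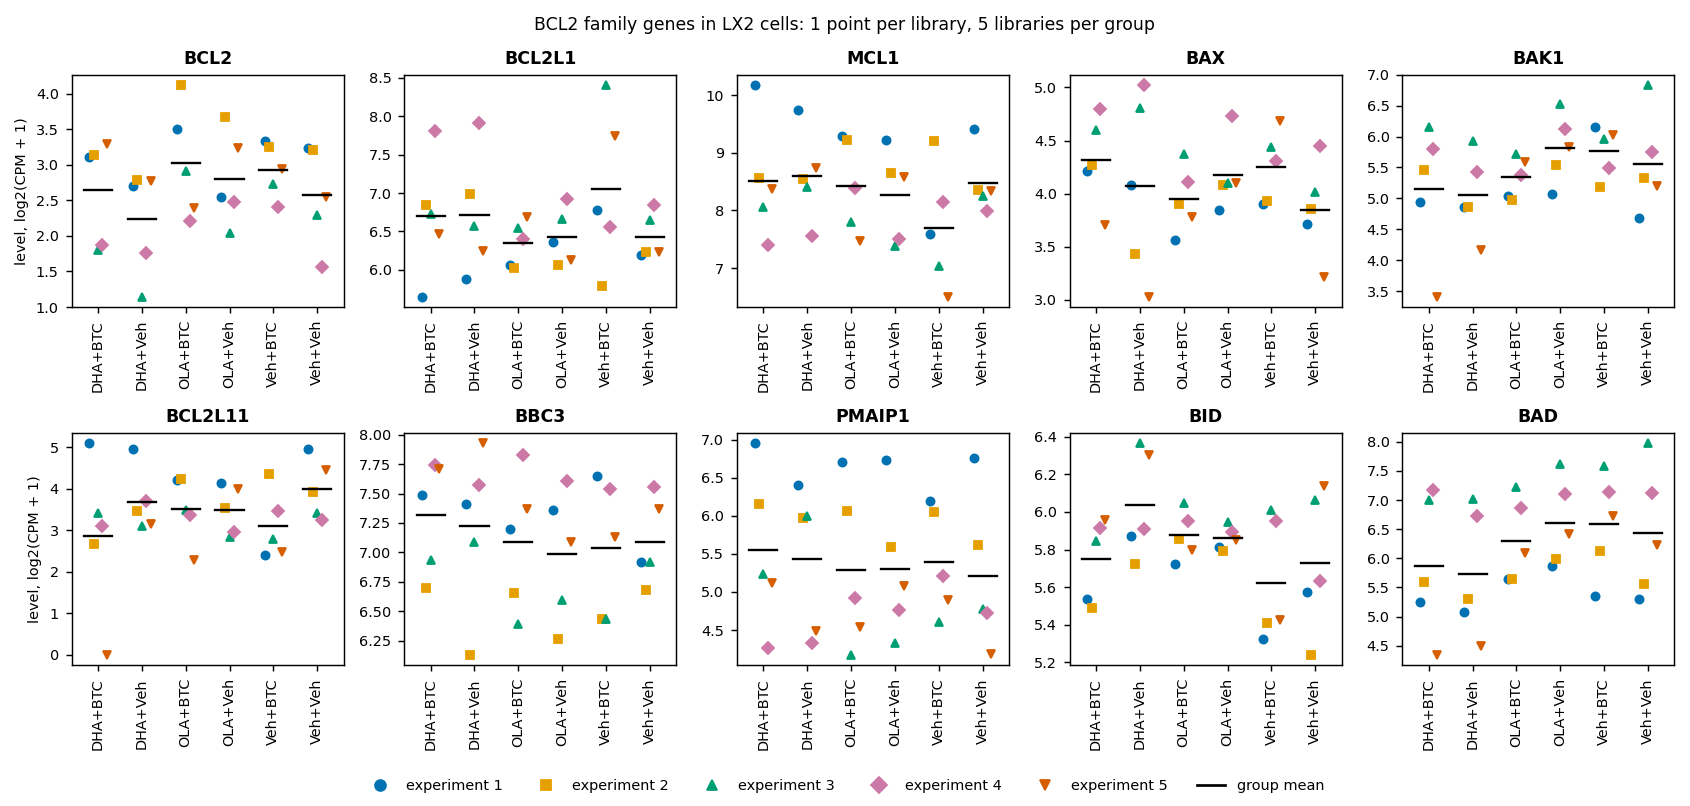
Level of each BCL2 family gene in every library, as log2(CPM + 1), by group, with 5 libraries per group, 1 symbol per experiment and a black line at the group mean; the vertical scales differ between panels. Most of the variance of PMAIP1, BBC3 and BAD lies between experiments, although BAD in experiment 5 runs from 4.34 (DHA+BTC) to 6.72 (Veh+BTC). BCL2L11 has 1 library at 0 (DHA+BTC 5).

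The experiment accounted for more of the variance of all 10 genes than the treatment group did. Between experiments lay 80.8% of the variance of PMAIP1, 78.2% of BBC3, 73.1% of BAD, 60.5% of BCL2 and 29.3 to 48.2% of the other 6, against a median of 47.7% over all tested genes. Between groups lay 1.65% for PMAIP1, 5.12% for BBC3 and up to 24.5% for BID, against a median of 11.3%. PMAIP1, which encodes the MCL1 antagonist NOXA, averaged 99.3 ± 18.2 CPM in experiment 1 and 25.7 ± 6.67 CPM in experiment 4 (SD, n = 6 each). BAD ran the other way, with 42.3 ± 9.06 CPM in experiment 1 and 174 ± 48.2 CPM in experiment 3. BBC3, which encodes PUMA, was lowest in experiment 2 at 89.0 ± 14.5 CPM and highest in experiment 4 at 199 ± 16.7 CPM. Following the labelled layout, the experiment was a term in every main fit below, and an alternative fit left it out.

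**Figure D2:**
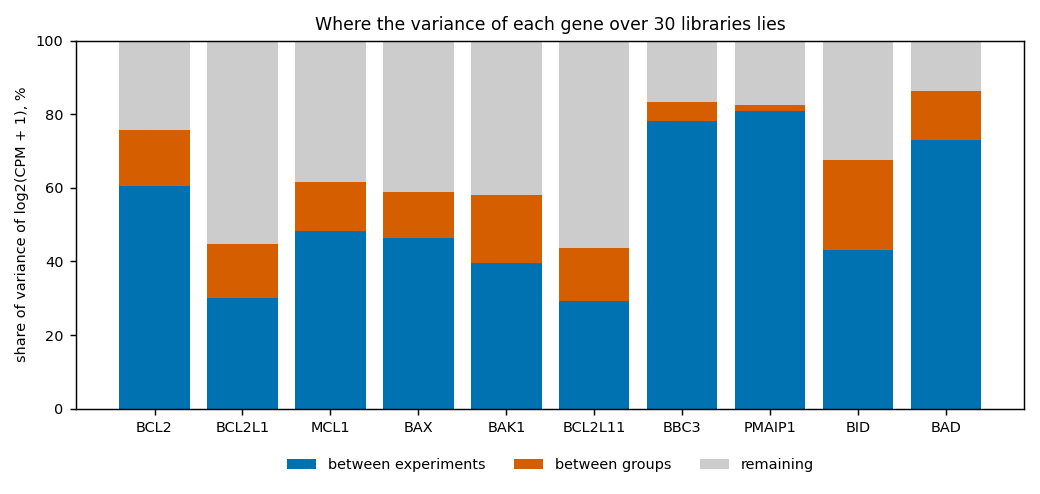
Share of the variance of log2(CPM + 1) over 30 libraries that lies between the 5 experiments, between the 6 groups and in the remainder, in percent, for each BCL2 family gene. The experiment share runs from 29.3% for BCL2L11 to 80.8% for PMAIP1, and the group share stays at or under 24.5%.

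The first question was whether DHA changed the transcripts of the family relative to vehicle. The fit was limma on log2(CPM + 1), averaged over both BTC conditions, with p-values adjusted by the Benjamini-Hochberg method over all 15137 genes and a gene called at an adjusted p under 0.05. BAD was lower in DHA libraries and was the 1 member called of 10; no member was called higher. Over all tested genes, 8.38% were called lower and 2.33% higher, so 1 of 10 lower and 0 of 10 higher were near the background. The median difference of the members was 0.05 and that of all genes -0.13 (log2). Beside BAD, 1 further member, BAK1, had an unadjusted p under 0.05. At that cut stood 2 of 10 members and 3868 of the 15137 tested genes, so the members did not stand out. Adjusted p-values of the 9 members other than BAD ran from 0.0940 to 0.949.

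BAD (ENSG00000002330.14) encodes a BH3-only protein that binds BCL-XL and BCL2 when growth factor signalling leaves it unphosphorylated. In experiments 1 to 5 in turn, DHA+BTC libraries held 36.9, 47.2, 127, 144 and 19.3 CPM and DHA+Veh libraries 32.7, 38.3, 128, 105 and 21.4 CPM. OLA+BTC libraries held 48.8, 49.1, 148, 116 and 67.3 CPM and OLA+Veh libraries 57.3, 62.1, 196, 137 and 84.8 CPM. Veh+BTC libraries held 39.9, 68.6, 191, 140 and 104 CPM and Veh+Veh libraries 38.4, 45.9, 251, 138 and 73.9 CPM. Across experiments the 3 pretreatments overlapped. Within an experiment both DHA libraries lay below both vehicle libraries in 3 of 5 experiments, and below both OLA libraries in 4 of 5. That separation from vehicle was not particular to BAD. Members that were not called also showed it in 3 of 5 experiments, BCL2 below vehicle and BAX and BBC3 above. How often it occurs over all tested genes was not counted. The widest gap was in experiment 5, where the DHA+BTC and DHA+Veh libraries rested on 24 and 33 reads, against 503 and 259 reads in the Veh+BTC and Veh+Veh libraries.

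BAD averaged 70.0 ± 49.7 CPM in DHA and 109 ± 70.9 CPM in vehicle libraries (SD, n = 10 each), a difference of -0.71 ± 0.18 (log2, SE; fold 0.610; limma adjusted p = 0.0081), lower in 5 of 5 experiments. The difference within an experiment was -0.17, -0.39, -0.77, -0.18 and -2.06 in experiments 1 to 5, so experiment 5 lay well below the other four. Without experiment 5 it was -0.38 with an adjusted p of 0.0951, and without experiment 3 it was -0.70 with an adjusted p of 0.0514. That fit treats the BTC and Veh libraries of an experiment as independent, and with both averaged first the adjusted p was 0.0709 at the same difference. The adjusted p ran from 0.0046 to 0.578 over 49 alternatives, and the highest value came from the fit without the experiment term. Without the 3 shallowest libraries the difference was -0.45 (adjusted p = 0.0408), and without the 4 libraries farthest from their experiment, an alternative chosen after seeing the data, it was -0.42 (adjusted p = 0.039).

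With and without BTC, the BAD differences between DHA and vehicle libraries had the same size. The difference was -0.71 ± 0.25 with BTC (adjusted p = 0.104) and -0.71 ± 0.25 without BTC (adjusted p = 0.156; log2, SE, limma). Neither passed alone, and no member was called in either comparison, where 3.55% (1.08% higher, 2.46% lower) and 1.54% of all tested genes were. The DHA by BTC interaction for BAD was -0.0020 with a 95% interval of -0.72 to 0.72 (log2). That interval is wide, and a difference between the BTC conditions of up to that size could not be detected.

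Oleic acid given at the same concentration served to set DHA apart from fatty acid feeding in general. BAD was again the 1 member called of 10 in DHA against OLA libraries, in a comparison in which 8.96% of tested genes were called lower and 2.40% higher; the DHA libraries are the same as in the comparison with vehicle. It averaged 70.0 ± 49.7 CPM in DHA and 96.6 ± 50.3 CPM in OLA libraries (SD, n = 10 each), a difference of -0.65 ± 0.18 (log2, SE; fold 0.637; limma adjusted p = 0.0160), lower in 5 of 5 experiments. This call was lost with edgeR (adjusted p = 0.0964), with DESeq2 (0.0639), with both BTC conditions averaged first (0.0942) and without experiment 5 (difference -0.35, 0.125). It was also lost without the 3 shallowest libraries (-0.39, 0.0874) and without the 4 farthest libraries (-0.35, 0.0696). Over 49 alternatives the adjusted p ranged from 0.0039 to 0.633 and was highest without the experiment term, where the call was lost as well. Between OLA and vehicle libraries BAD differed by -0.06 ± 0.18 (95% interval -0.42 to 0.30).

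**Figure D3:**
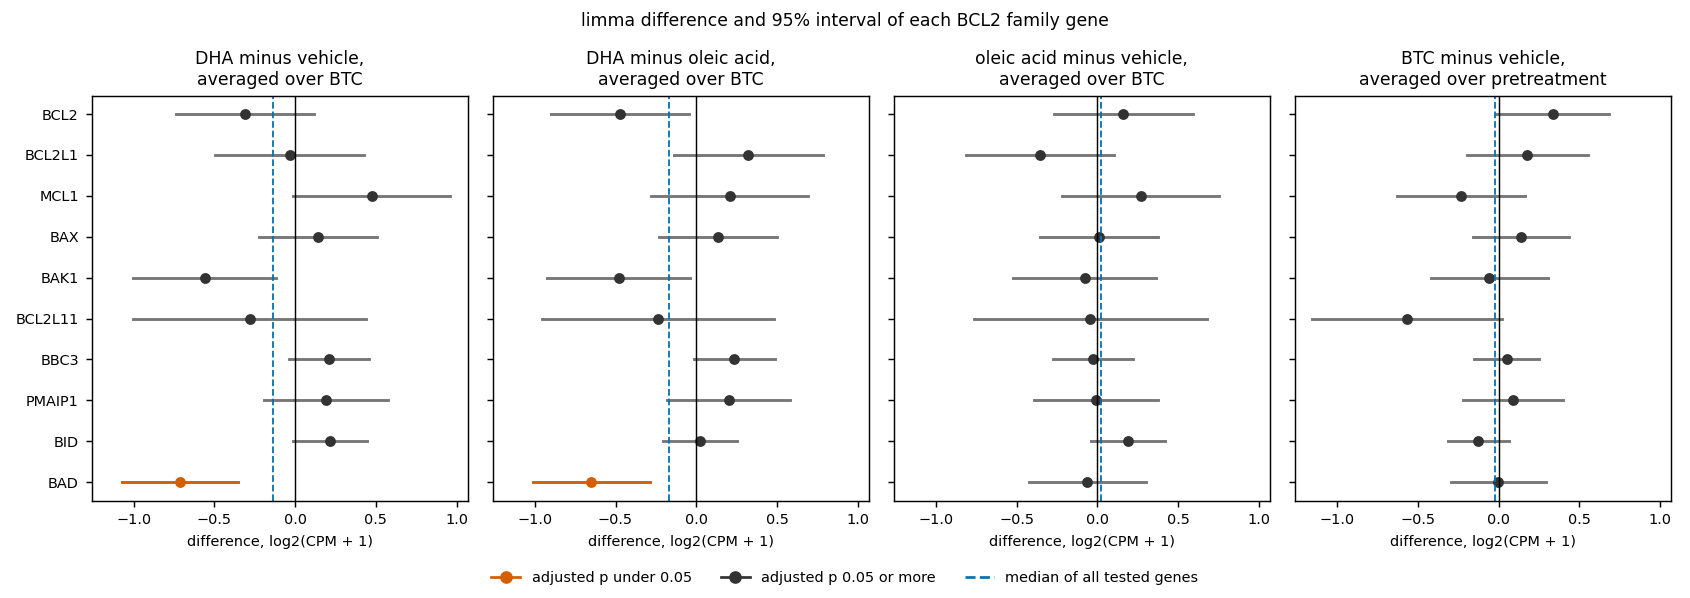
limma difference (point) and 95% interval (line) on the log2(CPM + 1) scale for each BCL2 family gene in the 4 averaged comparisons; orange marks an adjusted p under 0.05 and the dashed line the median of all tested genes. BAD is the 1 gene marked, at -0.71 against vehicle and -0.65 against OLA in the DHA panels.

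BAK1 (ENSG00000030110.14), one of the pore formers, had the next lowest unadjusted p among the members against vehicle. It averaged 38.2 ± 19.2 CPM in DHA, 49.6 ± 18.9 CPM in OLA and 54.0 ± 25.2 CPM in vehicle libraries (SD, n = 10 each). The difference from vehicle was -0.56 ± 0.22 (limma adjusted p = 0.0940) and that from OLA -0.48 ± 0.22 (adjusted p = 0.150), so neither passed. Both were below 0 in 5 of 5 experiments, but experiment 5 gave -1.82 against vehicle and -1.92 against OLA, and the other 4 gave -0.51 to -0.01 and -0.16 to -0.09. The DHA+BTC and DHA+Veh libraries of experiment 5 held 9.64 and 16.9 CPM (12 and 26 reads), against 64.1 and 35.6 CPM in the Veh+BTC and Veh+Veh libraries. Those 2 libraries are the shallowest of the 30 and among the 4 farthest from their experiment. Without those 4 libraries the BAK1 difference from vehicle was -0.03 (adjusted p = 0.937).

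**Figure D4:**
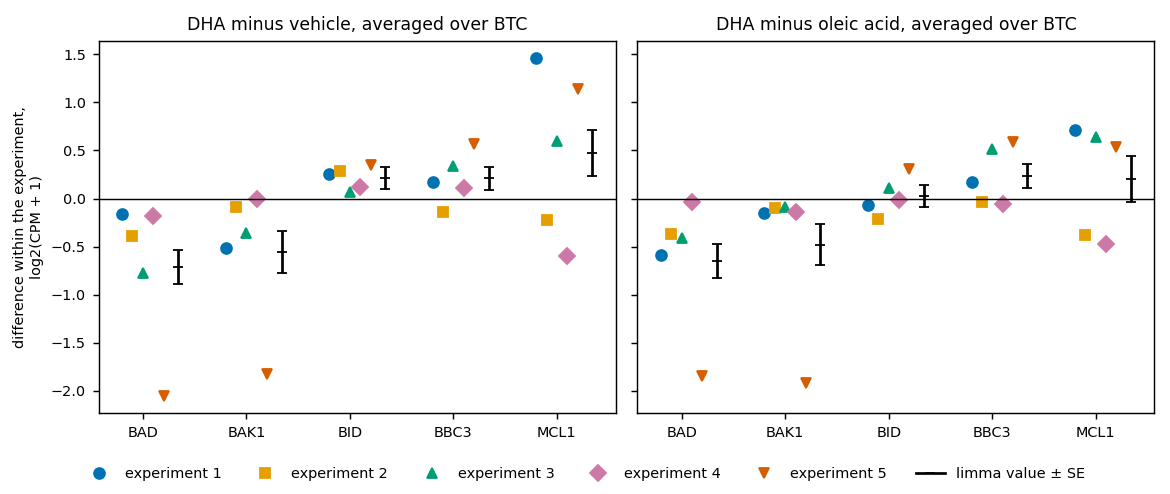
Difference within each experiment, averaged over BTC, on the log2(CPM + 1) scale, for BAD, BAK1, BID, BBC3 and MCL1, with 1 symbol per experiment and the limma value ± SE in black. BAD lies below 0 in 5 of 5 experiments in both panels, and experiment 5 gives the lowest value for BAD and BAK1, at -2.06 and -1.82 against vehicle.

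The other pore former, BAX (ENSG00000087088.21), was at 18.9 ± 8.05 CPM in DHA, 16.0 ± 4.12 CPM in OLA and 16.2 ± 4.92 CPM in vehicle libraries (SD, n = 10 each). Its difference from vehicle was 0.14 ± 0.18 (log2, SE) with a 95% interval of -0.22 to 0.51. Values in DHA libraries ran from 7.15 to 31.5 CPM and enclosed those of the vehicle libraries, at 8.27 to 24.7 CPM.

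Among the guardians, MCL1 (ENSG00000143384.14) averaged 448 ± 314 CPM in DHA, 367 ± 183 CPM in OLA and 316 ± 186 CPM in vehicle libraries (SD, n = 10 each). The difference of DHA from vehicle was 0.47 ± 0.24 (limma adjusted p = 0.210), higher in 3 of 5 experiments and lower in 2. BCL2L1 (ENSG00000171552.14) averaged 117 ± 64.7 CPM in DHA, 84.5 ± 19.0 CPM in OLA and 124 ± 87.1 CPM in vehicle libraries, and its difference from vehicle was -0.03 ± 0.23. That difference changed sign with other scalings, at 0.088 (median-of-ratios) and 0.060 (quantile). BCL2 (ENSG00000171791.14) averaged 5.04 ± 2.68 CPM in DHA, 7.38 ± 4.31 CPM in OLA and 6.15 ± 2.41 CPM in vehicle libraries. It differed by -0.31 ± 0.21 from vehicle (adjusted p = 0.380) and by -0.47 ± 0.21 from OLA (adjusted p = 0.143), and lay below OLA in 4 of 5 experiments.

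The BH3-only genes other than BAD did not pass. BBC3 (ENSG00000105327.18), a p53 target, averaged 163 ± 54.6 CPM in DHA, 138 ± 49.9 CPM in OLA and 139 ± 42.9 CPM in vehicle libraries (SD, n = 10 each), and its difference from vehicle was 0.21 ± 0.12 (limma adjusted p = 0.292). PMAIP1 (ENSG00000141682.12) averaged 53.1 ± 33.9, 46.9 ± 33.7 and 45.0 ± 28.6 CPM in DHA, OLA and vehicle libraries, and its difference from vehicle was 0.19 ± 0.19 (adjusted p = 0.571). BCL2L11 (ENSG00000153094.24), which encodes BIM and is induced by forkhead factors when growth factors are withdrawn, averaged 12.3 ± 10.7 CPM in DHA, 11.4 ± 5.05 CPM in OLA and 12.7 ± 8.33 CPM in vehicle libraries. Its difference from vehicle was -0.28 ± 0.35, and without the DHA+BTC library of experiment 5, which held 0 reads, it was 0.04.

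BID (ENSG00000015475.19), which links death receptors to the mitochondrion once caspase-8 has cleaved it, varied least of the 10 genes relative to its mean. DHA libraries averaged 59.4 ± 12.2 CPM, OLA libraries 57.5 ± 3.90 CPM and vehicle libraries 51.4 ± 12.3 CPM (SD, n = 10 each). The difference of DHA from vehicle was 0.22 ± 0.11 (limma adjusted p = 0.230), higher in 5 of 5 experiments, and DESeq2 called it at 0.33 (adjusted p = 0.0357). The adjusted p ran from 0.0357 to 0.720 over 49 alternatives. The difference from OLA was 0.02 ± 0.11, and its sign depended on the libraries used.

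The second question was whether BTC changed these transcripts. Averaged over the pretreatments, limma called 0 of 10 members and 0.0% of tested genes, and 0 members and 609 genes had an unadjusted p under 0.05; edgeR and DESeq2 also called 0 genes. Member differences ran from -0.57 to 0.33 (log2). BCL2 averaged 6.98 ± 3.56 CPM with BTC and 5.40 ± 2.86 CPM without (SD, n = 15 each), a difference of 0.33 ± 0.17 (limma adjusted p = 0.994), higher in 5 of 5 experiments. BCL2L11 averaged 10.6 ± 8.37 CPM with BTC and 13.7 ± 7.74 CPM without, a difference of -0.57 ± 0.29 (limma adjusted p = 0.994), higher in 3 of 5 experiments and lower in 2. After DHA, after OLA and after vehicle alike, no member was called for BTC and limma called 0.0% of tested genes. At an unadjusted p under 0.05 there were 629, 299 and 1539 genes, edgeR called 0 genes in each, and DESeq2 called 0, 1 and 1.

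On the log2(CPM + 1) scale, as deviations from the mean of the experiment, the guardians MCL1 and BCL2L1 spread more in the Veh+BTC group than in the other 5 groups, with SDs of 0.99 and 0.93 (n = 5). In CPM the SD of MCL1 was 397 in DHA+BTC and 199 in Veh+BTC libraries. In experiments 1 to 5 in turn, Veh+BTC libraries held 191, 587, 130, 284 and 89.6 CPM of MCL1, against 677, 327, 303, 254 and 321 CPM in Veh+Veh libraries. For BCL2L1, Veh+BTC libraries held 109, 54.6, 338, 93.3 and 214 CPM, against 71.9, 74.4, 99.2, 114 and 73.9 CPM in Veh+Veh libraries. The Veh+BTC libraries of experiments 1, 3 and 5 were thus low in MCL1 and high in BCL2L1, those of experiments 2 and 4 were not, and the groups overlapped. The BTC difference after vehicle was -0.77 ± 0.34 for MCL1 (limma adjusted p = 0.469) and 0.63 ± 0.32 for BCL2L1 (adjusted p = 0.505), and neither passed. For BCL2L11 it was -0.90 ± 0.50 (limma adjusted p = 0.545), with 4.28, 19.5, 5.91, 10.0 and 4.57 CPM in Veh+BTC against 29.8, 14.0, 9.73, 8.47 and 20.8 CPM in Veh+Veh libraries.

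Other properties of the Veh+BTC libraries are given beside these values, and their part in the pattern was not tested. Those of experiments 1 and 5 had the steepest rise of levels with the GC content of the 3′ end, at 0.25 and 0.19 log2 units per 10% GC, against 0.06 in experiment 3 and -0.09 and -0.08 in experiments 2 and 4. The last 500 bases of the transcript held 44.6% GC for MCL1 and 57.2% for BCL2L1, against a median of 42.6%. With the GC trend of each library removed, a correction chosen after seeing the data, the differences were -0.78 for MCL1 and 0.51 for BCL2L1. Without the 4 libraries farthest from their experiment, which include Veh+BTC 1 and Veh+BTC 5, they were -0.05 for MCL1 and 0.30 for BCL2L1. Of the 10 members BAD had the highest GC content there, at 63.8%. In experiment 5 the GC slope was -0.10 in DHA+BTC and -0.02 in DHA+Veh, against 0.19 in Veh+BTC and 0.02 in Veh+Veh libraries. With the GC trend removed, 1 of 10 members was still called lower in DHA libraries, against vehicle and against OLA alike.

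Comparisons that used the Veh+BTC group carried the same pattern of MCL1 and BCL2L1. With BTC, MCL1 differed by 0.82 ± 0.34 between DHA and vehicle libraries (limma adjusted p = 0.172), higher in 3 of 5 experiments. Without the Veh+BTC library of experiment 2 that value was 1.14 and passed (adjusted p = 0.0386), and without the 4 farthest libraries it was 0.06, in a range of adjusted p from 0.0386 to 0.953. OLA and vehicle libraries with BTC differed by 0.74 ± 0.34 for MCL1 and by -0.71 ± 0.32 for BCL2L1 (adjusted p = 0.695 each), and limma called 0.0% of tested genes there. The BTC differences after DHA were -0.09 ± 0.34 for MCL1 and -0.02 ± 0.32 for BCL2L1, and after OLA 0.17 ± 0.34 and -0.08 ± 0.32. In the interaction tests no member was called and limma called 0.0% of tested genes; for MCL1 the OLA by BTC value was 0.94 ± 0.48 (adjusted p = 0.592) and the DHA by BTC value 0.69 ± 0.48 (adjusted p = 0.983).

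Oleic acid against vehicle, averaged over BTC, called 0 of 10 members and 0.0% of tested genes in limma, with 0 members and 302 genes at an unadjusted p under 0.05, and 0 genes in edgeR and DESeq2. Member differences ran from -0.36 for BCL2L1 to 0.27 for MCL1 (log2), with a median of -0.02 against 0.02 for all genes. BID had the lowest unadjusted p, at a difference of 0.19 ± 0.11 (limma adjusted p = 1.00). Without BTC, too, no member and 0.0% of tested genes were called.

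Members rose and fell together across libraries in a few pairs, given here as a description over 30 libraries that share experiments, depth and base composition. After the mean of each experiment was removed, BAK1 and BAD had a Pearson correlation of 0.80, MCL1 and BID 0.58, and MCL1 and BCL2L11 0.48. BCL2L1 and MCL1 stood at -0.77, MCL1 and BAK1 at -0.53, BBC3 and BAD at -0.52, and BAK1 and BID at -0.50. Of 45 pairs, BAK1 with BAD was the highest and BCL2L1 with MCL1 the lowest. Among 10075 named genes at a mean of 5 CPM or more, those most like BAD were HMG20B at 0.92, ANTKMT at 0.91 and CUTA at 0.90.

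**Figure D5:**
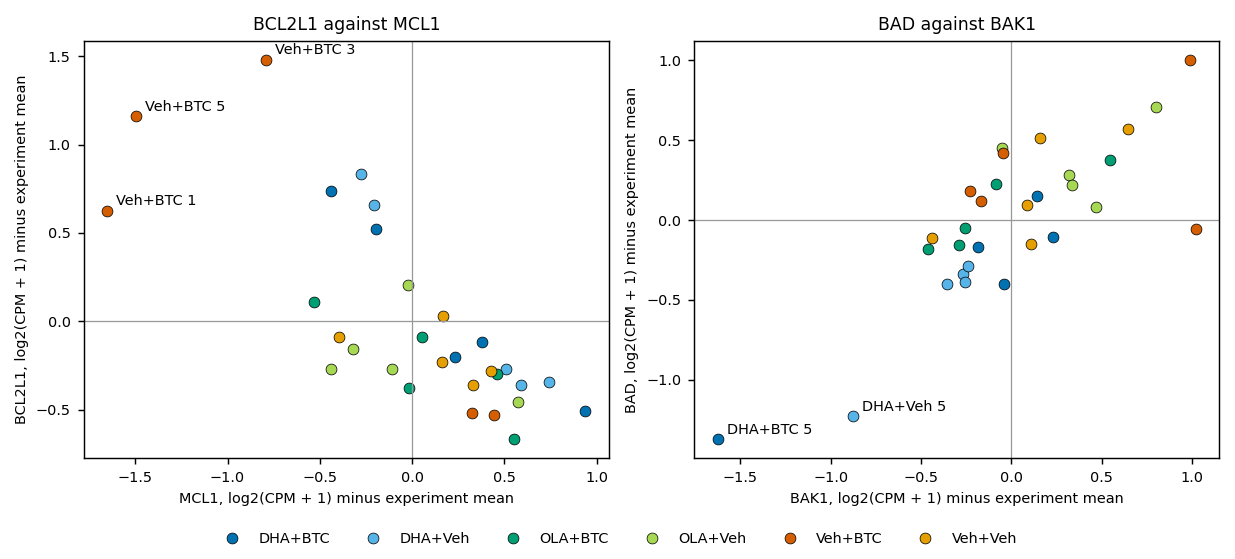
BCL2L1 against MCL1 (left) and BAD against BAK1 (right) in 30 libraries, each as log2(CPM + 1) minus the mean of its experiment and coloured by group. The Veh+BTC libraries of experiments 1, 3 and 5 lie at the upper left in the MCL1 panel, and the DHA+BTC and DHA+Veh libraries of experiment 5 lie at the lower left in the BAK1 panel.

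Relatives of the 10 genes outside the list included the DHA-responsive transcripts of largest change in the family. Of 12 other BCL2 family genes, 10 were tested, and against vehicle 3 rose and 1 fell, where 2.33% of all tested genes were called higher and 8.38% lower. BNIP3, which encodes a BH3-like mitophagy receptor, averaged 88.7 ± 20.3 CPM in DHA, 38.2 ± 10.2 CPM in OLA and 35.1 ± 10.8 CPM in vehicle libraries (SD, n = 10 each). It rose by 1.35 ± 0.15 against vehicle (limma adjusted p = 5.33e-07) and by 1.20 ± 0.15 against OLA (3.14e-06), in 5 of 5 experiments, and was called in all 8 alternatives tried for the lists. BCL2A1, a guardian induced by inflammatory signals, rose by 1.75 ± 0.39 (limma adjusted p = 0.0035) with 7.63 ± 8.05 CPM in DHA and 0.920 ± 0.783 CPM in vehicle libraries. Its vehicle mean lay below the 1 CPM minimum for testing, so the size of this rise rests on values near the floor. BNIP3L, a second mitophagy receptor, rose by 0.44 ± 0.13 (adjusted p = 0.0338), and BOK, a BAX-like gene, fell by 0.72 on the log2 scale (SE 0.20, adjusted p = 0.0168). Of these, BCL2A1 was lost without the experiment term (limma adjusted p = 0.0524) and without the 3 shallowest libraries (0.0552). BNIP3L was lost under 4 of the 8 alternatives and BOK under all but 1 of the 8. The call of BCL2A1 against OLA was kept in 4 of the 8.

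Genes downstream of the mitochondrial step and on the death receptor route gave 2 calls each, to be read against the same 2.33% higher and 8.38% lower. Of 17 tested genes of the apoptosome, caspases and their inhibitors, 0 rose and 2 fell against vehicle, with a median of -0.16 beside -0.13 for all genes. BIRC5, an inhibitor of apoptosis protein that also serves in mitosis, fell to 144 ± 45.0 CPM in DHA, against 236 ± 55.7 CPM in OLA and 232 ± 68.9 CPM in vehicle libraries (-0.68 ± 0.13, limma adjusted p = 0.00052). DFFA, which encodes the inhibitor of the caspase-activated nuclease, fell by 0.46 on the log2 scale (adjusted p = 0.0439) and was called in none of the 8 alternatives. Of 12 tested death receptor genes, 2 rose and 0 fell. TNFRSF10B, a TRAIL receptor, was at 210 ± 85.5 CPM in DHA, 127 ± 54.3 CPM in OLA and 129 ± 66.5 CPM in vehicle libraries (0.75 ± 0.17, adjusted p = 0.0050), and FAS rose by 0.74 ± 0.25 at 3.61 ± 2.95 CPM in DHA against 1.67 ± 1.75 CPM in vehicle libraries (adjusted p = 0.0480), a call kept in 3 of the 8 alternatives.

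The lists of regulators held calls in both directions, to be read against the same 2.33% higher and 8.38% lower of all tested genes. Of 19 p53 genes, 3 rose and 2 fell against vehicle: CDKN1A, the cell cycle inhibitor p21, rose by 0.79 ± 0.15 (limma adjusted p = 0.00089), SESN2 by 0.49 ± 0.13 and MDM2 by 0.49 ± 0.15, while GADD45A fell by 0.65 and MDM4 by 0.51 on the log2 scale. CDKN1A was lost only without the experiment term among the 8 alternatives, SESN2 and MDM2 were called in 4 of 8, GADD45A in 1 of 8 and MDM4 in 0 of 8. The p53 targets BBC3, PMAIP1 and BAX among the members did not pass. Of 14 transcription factors that act on the family, 2 rose, DDIT3 (CHOP) by 1.05 ± 0.15 (adjusted p = 2.64e-05) and ATF4 by 0.64 ± 0.19 (adjusted p = 0.0240); both belong to the integrated stress response. DDIT3 was at 81.9 ± 53.3 CPM in DHA, 36.4 ± 13.5 CPM in OLA and 36.4 ± 15.4 CPM in vehicle libraries. Of 14 genes that control MCL1 turnover or BH3-only proteins, 2 rose and 2 fell. PIM3, a kinase that phosphorylates BAD, was at 868 ± 322 CPM in DHA, 560 ± 141 CPM in OLA and 502 ± 200 CPM in vehicle libraries (0.79 ± 0.14, adjusted p = 0.00032), and PIM2 rose by 0.67 ± 0.18 (adjusted p = 0.0155). UBE2C, an enzyme of the anaphase-promoting complex, fell by 0.59 and DYNLL2, a dynein light chain that binds BMF, by 0.48 on the log2 scale. ATF4, PIM2 and UBE2C were each called in 4 of the 8 alternatives, and DYNLL2 in 1.

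Of these 19 context genes called against vehicle, 7 were still called with both BTC conditions averaged first, 7 without experiment 5 and 6 without the 3 shallowest libraries. Without the experiment term 1 of the 19 was still called, BNIP3, so BIRC5, TNFRSF10B, DDIT3 and PIM3 were lost there. Against OLA, 17 context genes were called, of which 10 were still called with both BTC conditions averaged first, 5 without experiment 5 and 5 without the 3 shallowest libraries. Again only BNIP3, 1 of the 17, was still called without the experiment term. Other BCL2 family genes gave 2 up and 0 down of 10 tested, apoptosome genes 0 and 2 of 17, and death receptor genes 1 and 0 of 12. The p53 genes gave 4 and 0 of 19, transcription factors 2 and 1 of 14, and the MCL1 and BH3-only control genes 1 and 4 of 14. Over all tested genes, 2.40% were called higher and 8.96% lower against OLA. Called against OLA and not against vehicle were the caspase CASP2, which fell by 0.50 on the log2 scale (limma adjusted p = 0.0256), the p53 target AEN, which rose by 0.42 (0.0368), the p53 relative TP73, which fell by 1.17 (0.0148), YWHAZ, a 14-3-3 protein, which fell by 0.50 (0.0107), and FBXW7, a ubiquitin ligase subunit that targets MCL1, which fell by 0.49 (0.0201). Of these, AEN and TP73 were called in 4 of the 8 alternatives, YWHAZ in 2, and CASP2 and FBXW7 in 0; the differences between the 2 comparisons were not tested. For OLA against vehicle and for BTC, the counts were 0 in each of the 6 lists.

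The cultures are bulk samples, so fewer cells with a transcript and less of it per cell cannot be told apart. In the same DHA libraries 6 of 10 tested stellate markers fell and 1 rose against vehicle, where 8.38% of all tested genes were called lower and 2.33% higher. The summed stellate level was 2116 to 3703 CPM (median 2591) in DHA and 2042 to 4347 CPM (median 3561) in vehicle libraries. Of 5 tested epithelial markers CDH1 rose by 1.28 ± 0.36 (limma adjusted p = 0.0207) and KRT18 fell by 0.97 on the log2 scale (9.18e-05), and of 4 tested leukocyte markers CD14 fell by 1.19 (0.0023). Of the 8 alternatives, CDH1 was called in 4, and KRT18 and CD14 in 7 each. Among the called stellate markers, COL1A1 was called in 3 and COL3A1 in 5. ACTA2, COL1A2, SPARC, TAGLN and TIMP1 were called in 7 each. The summed epithelial level was 96.2 to 279 CPM in DHA and 124 to 586 CPM in vehicle libraries, and the summed leukocyte level 11.2 to 53.8 CPM in DHA and 11.5 to 54.4 CPM in vehicle libraries. The 1 tested endothelial marker was not called. The part of these changes in the BAD difference was not tested. In the GENCODE 29 annotation MCL1 overlaps ADAMTSL4-AS1, BCL2 overlaps AC022726.1, BBC3 overlaps MIR3191 and BID overlaps MIR3198-1 on the same strand, and BAD overlaps GPR137, BAK1 overlaps GGNBP1 and BCL2L11 overlaps MIR4435-2HG on the other strand. Genes on the other strand also overlap BCL2L1, BCL2 and BBC3. Whether the authors counted by strand is not stated in the labels, and reads of such partners cannot be told apart.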

How the data were processed

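RNA of 30 LX2 samples was made into QuantSeq 3′ FWD libraries, per the labels' protocols. The submitters' processing notes name STAR 2.5.3a and HTSeq 0.6.0; build, annotation and strand setting are not given in the sources used here. The deposited table holds CPM, which sum to 1000000 in each library. Whole reads could be recovered for 100% of values within 0.01 read, and intervals and floors on them cover counting error only. Of 61597 identifiers, 61444 (99.8%) matched a symbol.

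Groups were compared with limma 3.58.1 (R 4.3.3) on log2(CPM + 1), for genes that reached 1 CPM in 5 or more libraries, in 1 fit of all 30 libraries with the experiment as a block, trend on and 2-sided tests; fold changes are on that scale and understate those of low genes. P-values were adjusted within each of 13 comparisons. Libraries of an experiment deviated together, with a lowest correlation of 0.119 over 75 pairs, so the experiment number pairs them. The alternatives were edgeR 4.0.16 and DESeq2 1.42.0 on recovered reads, other scalings, filters and pseudocounts, and libraries or experiments left out. The statistics were tested on simulated data.

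All 10 members are named, with, for each context list, the genes of smallest p or all that were called if few, and the 3 genes whose pattern was most like that of a called member. The members and the gene lists were chosen with earlier results of these data known.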

Additional observations from a re-analysis of the deposited data

Results flagged for a closer look

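Each of the 60 sets of 1 member in 1 group of 5 libraries was searched for a library far from the others, by its gap to the next library as a share of the range of the group, on the log2(CPM + 1) scale. The critical value is 0.710, and chance alone would pass it in about 1 in 20 sets. It was passed in 2 sets. The mean of the experiment was not removed in this search. MCL1 stood at 677 CPM in the Veh+Veh library of experiment 1, with a gap of 0.743 of the log2 range. That library lay only 0.17 (log2) above the mean of experiment 1, where MCL1 was highest of all experiments at 683 CPM. BAX stood at 25.5 CPM in the OLA+Veh library of experiment 4, with a gap of 0.716 of the log2 range. That library lay only 0.16 (log2) above the mean of experiment 4, where BAX was highest of all experiments at 23.3 CPM. On the CPM scale, looked at afterwards, 5 sets passed: these gaps were 0.828 for MCL1 and 0.775 for BAX, and the others were MCL1 in DHA+BTC (0.788) and BCL2L11 in DHA+Veh (0.808) and in DHA+BTC (0.7102).

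Several contrasts of each of the 10 members were also searched for effects of opposite sign in all 5 experiments. The OLA effect on BAX was flagged because it lay above 0 in 5 of 5 experiments without BTC and below 0 in 5 of 5 with BTC. The difference between the 2 effects was -0.63 (log2), and its sign in each experiment was fixed by that rule. The interaction test of limma did not call this difference (adjusted p = 0.615).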

How the results depend on the processing

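Of 1751 alternative values of 36 member results, 1706 kept their direction and side of the threshold. A call was lost in 11 and gained in 3, and 31 changed sign, in 6 results. Only BAD against vehicle and BAD against OLA were called, with 49 alternatives each, so all 11 losses fell on these. The other results had no call to lose. The count of members called between DHA and vehicle (1) was 2 with DESeq2, 0 with no replicate block, 0 with both BTC conditions averaged within each experiment, and 0 to 1 with 1 library or experiment left out. The count between DHA and OLA (1) was 0 with edgeR, DESeq2, no replicate block, averaging, without the 3 shallowest and without the 4 farthest libraries, and 0 to 1 with 1 left out; that between DHA and vehicle with BTC (0) was 0 to 1 with 1 left out.

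None of the 6 results that changed sign was called. For DHA against vehicle, BCL2L1 was 0.088 (median-of-ratios), 0.060 (quantile), 0.046 with edgeR, 0.044 with DESeq2, 0.21 without the 4 farthest libraries and -0.33 to 0.18 with 1 left out; BCL2L11 was 0.12 without the 3 shallowest libraries and -0.69 to 0.12 with 1 left out. For DHA against OLA, BCL2L11 was 0.12 with edgeR, 0.092 with DESeq2, 0.16 without the 3 shallowest, 0.16 without the 4 farthest and -0.51 to 0.093 with 1 left out; PMAIP1 was -0.090 to 0.39 with 1 left out; BID was -0.053 without the 3 shallowest, -0.0083 without the 4 farthest and -0.046 to 0.084 with 1 left out. BAK1 between DHA and vehicle with BTC was -0.61, and 0.24 without the 4 farthest. The causes were not tested.

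Counts over all genes moved more. For DHA against vehicle (1621) they were 950 with edgeR, 104 with no replicate block, 784 averaged, 1001 with the compared groups alone, 575 without the 3 shallowest and 763 to 2071 with 1 left out. For DHA against OLA (1719) they were 965, 68, 771 with the first 3 of these, 537 without the 3 shallowest, 1006 without the 4 farthest and 601 to 2102 with 1 left out. The 352 higher and 1269 lower genes against vehicle became 530 and 754 (median-of-ratios), 520 and 661 (quantile), 454 and 496 with edgeR and 636 and 734 with DESeq2; the 363 and 1356 against OLA became 515 and 751, 532 and 648, 484 and 481, and 664 and 747. Depth limits BCL2, BCL2L11 and the DHA libraries of experiment 5 most.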
